A study of Homo sapiens with 28 samples.

Results

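The 49 genes described here start, drive and supply DNA replication, and their transcript levels were followed in HEK293 cells after knockdown of 9 proteins that process RNA or act on DNA and chromatin. The rule that picks them is a list of names and uses no measured value. Each was read by 1 probeset annotated to that gene alone, and all 49 of 49 were among the 18417 genes measured. Expression was recorded on Affymetrix Human Gene ST arrays, given as 28 arrays in 2 series of 14. The lacZ array of the first series and 1 lacZ array of the second were counted as 1 sample, normalized in either series. The study asked which of these proteins affect the use of 3′ ends of transcripts. In the first series CLP1 (a kinase of the complex that cleaves pre-mRNA 3′ ends), DDX5 and DDX17 (related RNA helicases) and HNRNPL (an RNA-binding splicing regulator) were each knocked down with 3 hairpins, CPSF6 (a subunit of another 3′ cleavage factor) had 1 array, and the lacZ control had 1 array. In the second series PABPC1 (the cytoplasmic poly(A)-binding protein), PARP1 (which builds poly(ADP-ribose) at DNA breaks), PRKDC (the catalytic subunit of DNA-dependent protein kinase) and SUPT16H (the larger part of FACT, a chaperone that moves histones) had 3 hairpins each, and lacZ had 2 arrays. Every array, lacZ included, came from cells that carried a lentivirus with a hairpin driven by the U6 promoter and that were kept in puromycin, for 6 days. The control hairpin targets a bacterial gene that human cells lack. The arrays of a target each used a different hairpin, in 1 cell line. Nothing in the labels ties any array to a culture of its own, so the p-values here measure array-to-array spread, which may be technical in part. The number of arrays limits the precision.

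Replication begins where the origin recognition complex (ORC) marks DNA and, with CDC6 and CDT1, loads the ring-shaped MCM2 to MCM7 helicase. The kinase CDC7, MCM10, CDC45 and the GINS complex turn the loaded rings into moving helicases, after which primase and the DNA polymerases copy the strands, held on DNA by the sliding clamp PCNA and its loader RFC. Many of these genes are switched on at the entry into S phase by transcription factors of the E2F family, which the RB proteins hold back. HEK293 cells, an embryonic kidney line, carry adenovirus E1A and E1B genes, and E1A is known to bind RB proteins.

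Because E2F sites are the best known shared feature of these promoters, the stretch from 250 bases before to 50 bases after each annotated transcription start (RefSeq, GRCh38.p14) was searched on both strands for TTTCCCGC, TTTGGCGC, TTTGCCGC and TTTCGCGC, the core forms of the E2F site. These can overlap when 2 lie head to head. A promoter stretch was at hand for 42 of the 49 genes, all but CCNE2, GINS4, MCM4, MCM5, POLD3, RPA2 and RPA3. At least 1 match stood in 22 of the 42 genes (52.4%), against 3.99% of all 27305 genes with such a stretch. Counted by stretch, 22 of 53 (41.5%) held a match, against 3.31% of all 35116. A match is a description of letters and not a measured binding site. Among the genes called below, ORC1, POLD1 and POLD2 had a stretch with no match, and CDC7 and POLA1 held a match that is not shown. The 30 bases around 1 match are shown for other genes called below, each on the strand of its gene with the match in capitals.
MCM2, chr3:127598402-127598431, plus strand: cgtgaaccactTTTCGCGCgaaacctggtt
MCM8, chr20:5950667-5950696, plus strand: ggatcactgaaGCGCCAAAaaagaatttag
TYMS, chr18:657603-657632, plus strand: gcgggacggccGCGGGAAAaggcgcgcgga
CDC6, chr17:40287875-40287904, plus strand: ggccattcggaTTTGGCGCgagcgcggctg
CDT1, chr16:88803743-88803772, plus strand: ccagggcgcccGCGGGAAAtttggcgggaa
E2F1, chr20:33686387-33686416, minus strand: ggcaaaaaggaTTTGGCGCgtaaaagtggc
LIG1, chr19:48170440-48170469, minus strand: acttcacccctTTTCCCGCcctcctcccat
GINS1, chr20:25407667-25407696, plus strand: agctttgttcgGCGCCAAAgcgcggagcgg
PCNA, chr20:5126663-5126692, minus strand: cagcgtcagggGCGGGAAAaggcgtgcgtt
POLE2, chr14:49688201-49688230, minus strand: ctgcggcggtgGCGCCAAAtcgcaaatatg
In MCM2 the match began 2 bases after the annotated start and a second one overlapped it, in MCM8 it began 26 bases after the start, and in POLE2 5 bases before it. Of the 8 genes called higher than lacZ in some knockdown 6 held a match, of the 8 called lower 6 of the 7 with a stretch held one, and of the 33 called in neither direction 10 of 27. The match was therefore present among genes that moved in either direction.

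Values are log2 intensities after robust multi-array averaging, and differences are in log2 units, so that 1 unit is a 2-fold change. Differences were tested with limma, and a gene was called when its p-value, adjusted by Benjamini and Hochberg over all 18417 genes, was under 0.05. The 49 genes were well expressed, with 47 above the median gene. HEK293 markers VIM, NEFL, KRT8 and KRT18 lay between the 91.9 and 99.2 percentile of genes and LIN28B at 80.3, while NEFM (37.2) and PAX2 (49.4) did not stand out. Of the markers of other cell types, the blood markers PTPRC and CD3E lay at 1.6 and 22.2, the fibroblast markers DCN, COL1A2 and COL1A1 at 2.1, 33.5 and 60.6, and those of keratinocytes and hepatocytes between 11.6 and 41.1. COL1A1 was thus above PAX2 and NEFM. The series were normalized apart, so levels are compared within a series only. The lacZ array of the first series and lacZ array 2 of the second differed over genes by an SD of 0.06, against 0.16 to 0.76 between hairpins of a target, less than any other pair of arrays of a group. They were therefore counted as 1 sample, normalized in either series. The knocked-down gene itself was lower than lacZ in all 3 hairpins of every target. The difference was -2.11 for PABPC1, -1.18 for PARP1, -2.26 for PRKDC, -2.04 for SUPT16H and -1.33 for DDX17, all called, and -1.04 for DDX5, -0.93 for HNRNPL and -0.58 for CLP1, with adjusted p of 0.0869, 0.129 and 0.187.

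The median of the 49 genes lay within 0.15 of lacZ in the first series and below lacZ in all 4 knockdowns of the second, except that quantile normalization over all arrays moved PABPC1 to 0.02. The arrays read RNA of whole cultures, so fewer cells in S phase and less transcript per cell cannot be told apart. Against lacZ their median difference was 0.15 in the CLP1, -0.09 in the DDX5, 0.07 in the DDX17 and -0.01 in the HNRNPL knockdown, and -0.13 in the PABPC1, -0.12 in the PARP1, -0.37 in the PRKDC and -0.22 in the SUPT16H knockdown. The median over all genes tested lay between -0.01 and 0.10 in these comparisons. The size of the shift depended on the scaling. After quantile normalization the medians were 0.10 for CLP1, 0.03 for DDX5, 0.00 for DDX17 and 0.05 for HNRNPL, and 0.02 for PABPC1, -0.03 for PARP1, -0.08 for PRKDC and -0.05 for SUPT16H, so the sign turned for DDX5, HNRNPL and PABPC1. The PRKDC knockdown called 14 of the 49 (6 higher, 8 lower), where 35.7% of all genes were called (19.6% higher and 16.1% lower), which is 28.6% of the 49. With the second series fitted alone it called 30 (6 higher, 24 lower), or 61.2%, where 48.4% of all genes were called, so the order of the shares turned with the fit. In the other comparisons few passed. The CLP1 knockdown called 1 gene, higher, where 0.956% of all genes were called (0.337% higher, 0.619% lower). DDX17 called 2, both higher (all genes 2.77%, with 1.22% higher and 1.56% lower), HNRNPL 2, both higher (all genes 1.84%, with 0.7% higher and 1.13% lower), and DDX5 0 (all genes 0.842%, with 0.174% higher and 0.668% lower). In the second series PABPC1 called 1 higher and 1 lower (all genes 5.76%, with 1.73% higher and 4.02% lower), PARP1 1 higher and 2 lower (all genes 5.44%, with 2.46% higher and 2.98% lower), and SUPT16H 1 higher and 2 lower (all genes 9.53%, with 3.77% higher and 5.76% lower). In the DDX5 comparison 6 of the 49 (12.2%) had an unadjusted p under 0.05, against 11.4% of all genes, and limma gave none after adjustment. All 4 comparisons of the first series share 1 lacZ array, and all 4 of the second share the same 2, 1 of which is that same control sample. The comparisons are therefore not independent of each other, within a series or between them, and a gene on the same side of lacZ in either series rests in part on 1 control sample. Over all 49 genes, 16 were called in at least 1 of the 16 comparisons made here and 33 in none. The PRKDC comparison with lacZ by itself called 35.7% of all genes, so this count does not set the 49 apart.

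In the plain levels, 13 of the 49 genes were lower in all 12 knockdown arrays of the second series than in both lacZ arrays, where 12.4% of all genes were, and 2, MCM2 and LIG1, were higher in all of them, where 12.7% of all genes were. The 13 were ORC1, ORC6, CDC6, MCM3, MCM6, MCM8, MCM10, CDC7, PCNA, RFC2, POLA1, POLE2 and CCNE2. In the first series 3 genes (ORC1, CDC6 and MCM8) were below the lacZ array in all 12 three-hairpin knockdown arrays, where 11.2% of all genes were, and 5 (CDT1, MCM2, POLD2, RPA3 and TYMS) above it, where 9.31% were. After quantile normalization 9 of the 13 were still below lacZ in all arrays of the second series (all genes 10.1%), without MCM3, MCM6, ORC6 and RFC2, 6 genes were above (all genes 10.1%), and the 3 of the first series stayed below (all genes 13.1%).

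**Figure D1:**
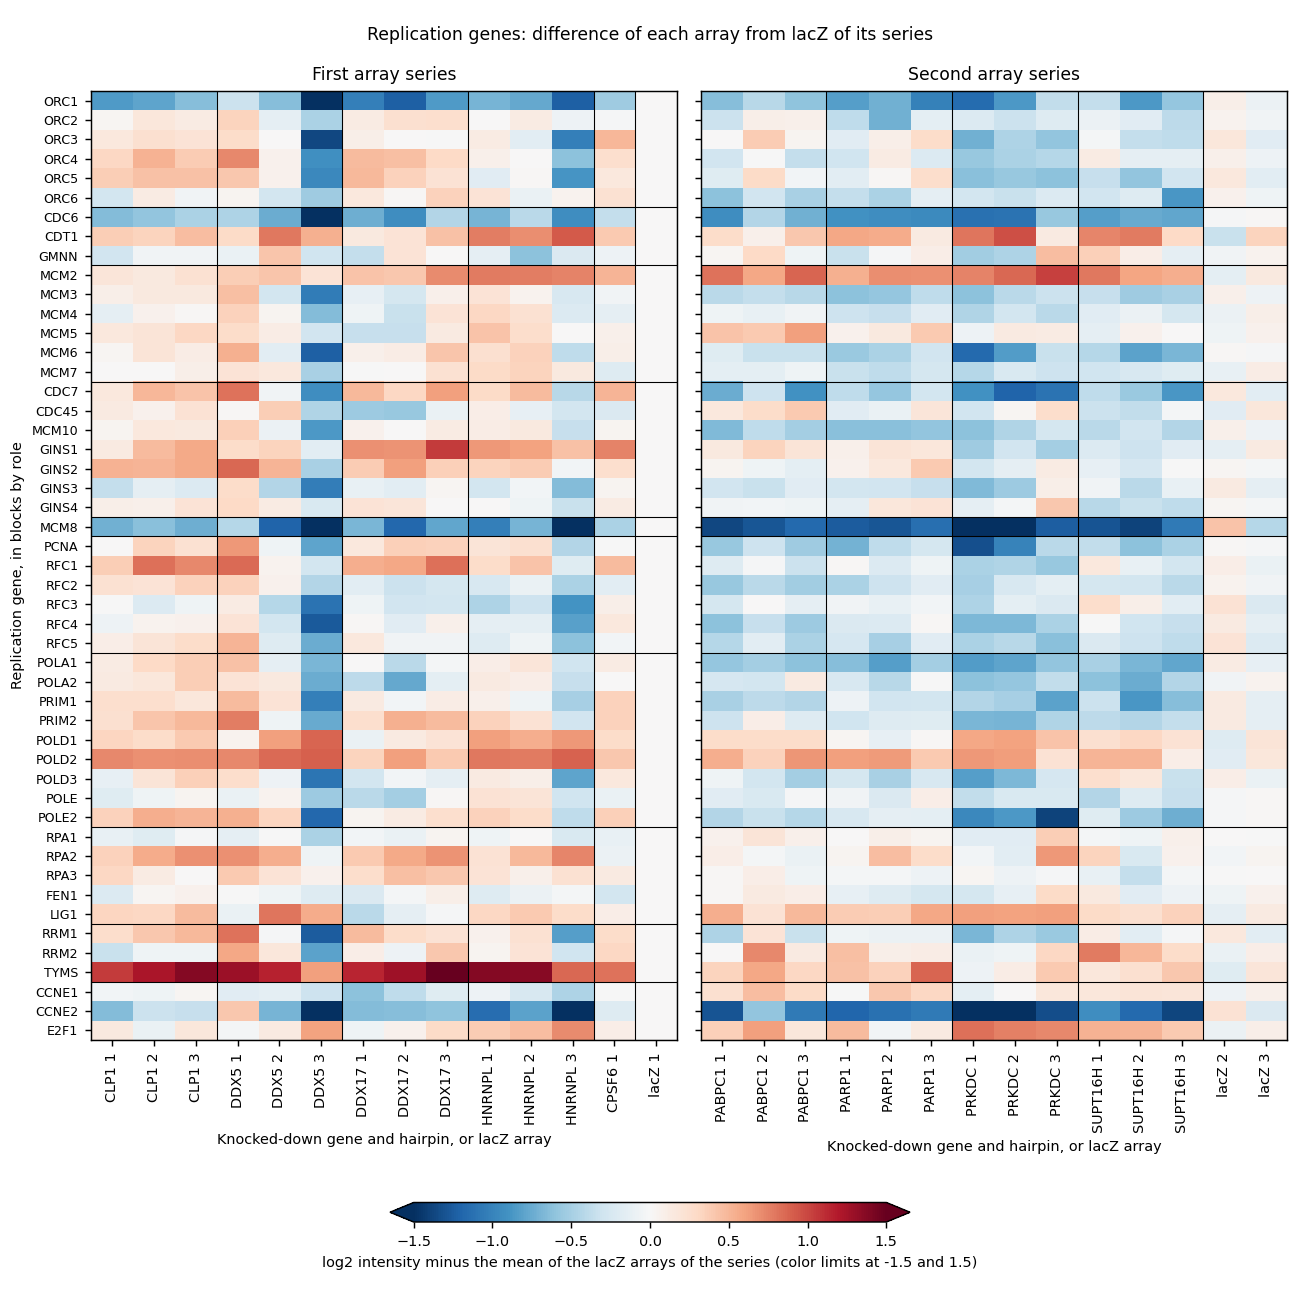
Each cell is the log2 intensity of a replication gene (rows, in blocks by role) in 1 array (columns) minus the mean of the lacZ arrays of its series, blue for lower and red for higher. MCM8, CDC6 and ORC1 form blue rows and MCM2 a red one in the three-hairpin knockdowns, and the DDX5 hairpin 3 column is blue for 41 of the 49 genes.

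Among the genes that choose origins, only ORC1, the largest ORC subunit, was called, although all ORC genes were lower than lacZ in the PRKDC knockdown. In the PRKDC knockdown ORC1 stood at 6.66, 6.95 and 7.44, against 7.90 and 7.73 in lacZ. All 3 hairpins were below both controls, and the difference was -0.80 ± 0.27 (SE, limma adjusted p = 0.0293). The same gene was at 6.63 to 8.02 in the 12 three-hairpin knockdown arrays of the first series, all below the 8.34 of their lacZ array, with differences of -0.76 for CLP1, -0.89 for DDX5, -1.03 for DDX17 and -0.89 for HNRNPL that did not pass the test. ORC2 to ORC6 passed in no comparison with lacZ. In the PRKDC knockdown their differences ran between -0.61 (ORC5) and -0.24 (ORC2). The ORC1 call was lost without PRKDC hairpin 1 (adjusted p = 0.11) and without lacZ array 2 (0.175).

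Of the helicase loaders, CDC6 fell and CDT1, which escorts the MCM ring to ORC, rose. CDC6 read 9.09, 9.06 and 9.04 in the PARP1 knockdown, against 9.98 and 10.01 in lacZ. The 3 hairpins lay close together, well below both controls, and CDC6 differed by -0.93 ± 0.26 (limma adjusted p = 0.033), a call lost without any 1 of these 5 arrays. In the PRKDC knockdown it read 8.88, 8.89 and 9.43 and differed from the same lacZ arrays by -0.92 ± 0.26 (adjusted p = 0.0115). This call leaned on lacZ array 2, and against lacZ array 3 alone the difference was -0.94. The 12 knockdown arrays of the second series lay between 8.88 and 9.55, all below lacZ. In the first series all 12 lay between 8.56 and 9.91, below the 10.31 of lacZ, and none of the 4 differences there, from -0.98 (DDX5) to -0.56 (CLP1), passed. CDT1 read 8.41, 8.58 and 7.75 in the PRKDC knockdown and 7.28 and 7.94 in lacZ. Hairpin 3 fell between the controls, so the groups overlapped, although the difference of 0.64 ± 0.23 passed (adjusted p = 0.033). The 2 lacZ arrays themselves were 0.66 apart for CDT1, and the call was lost without lacZ array 2 (0.31, adjusted p = 0.415). GMNN, whose product geminin holds CDT1 back, differed by -0.17 in the PRKDC knockdown (95% confidence interval -0.70 to 0.35).

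The 6 subunits of the MCM2 to MCM7 ring did not move together. MCM2 rose in 5 knockdowns. It read 8.61, 8.60 and 8.57 with HNRNPL hairpins, against 7.83 in the lacZ array, a difference of 0.77 ± 0.19 (adjusted p = 0.0373). This call was lost without any 1 of the 3 hairpins (adjusted p of 0.0616 to 0.081). In the second series MCM2 read 8.42, 8.19 and 8.48 with PABPC1, 8.14, 8.31 and 8.30 with PARP1, 8.35, 8.47 and 8.64 with PRKDC and 8.40, 8.20 and 8.16 with SUPT16H hairpins, against 7.46 and 7.76 in lacZ. Every knockdown array was above both controls. The differences were 0.76 (PABPC1, adjusted p = 0.00424), 0.64 (PARP1, 0.0126), 0.88 (PRKDC, 0.00057) and 0.65 (SUPT16H, 0.0108), each ± 0.15. Without lacZ array 2 the PRKDC call held and the others did not, at 0.61, 0.49 and 0.50 for PABPC1, PARP1 and SUPT16H. The other 5 subunits were called in none of the 16 comparisons, except that MCM5 was called higher with PABPC1 (0.67) and PRKDC hairpins (0.38) after quantile normalization (adjusted p of 0.00485 and 0.0429). In the PRKDC knockdown MCM6 differed by -0.78 (adjusted p = 0.0515), MCM3 by -0.44, MCM4 by -0.38, MCM7 by -0.32 and MCM5 by 0.05. MCM4 lies next to PRKDC itself on chromosome 8, with 804 bases between the annotated ends of the genes (GRCh38.p14). PRKDC itself read 7.08 to 7.37 under its hairpins, against 9.32 and 9.66 in lacZ. In the same arrays MCM4 read 8.83, 9.01 and 8.88, against 9.20 and 9.37 in lacZ, a difference that did not pass (adjusted p = 0.151).

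MCM8, a related helicase that acts in homologous recombination and is no part of the ring, had the largest difference of the 49 genes in all 4 knockdowns of the second series when both controls were used, a rank it kept only with PABPC1 hairpins against lacZ array 3 alone. It read 7.25, 7.51 and 8.07 with PRKDC, 7.94, 8.03 and 8.14 with PABPC1, 8.06, 8.03 and 8.18 with PARP1 and 8.01, 7.92 and 8.25 with SUPT16H hairpins, against 9.74 and 8.88 in lacZ. No knockdown array reached the lower control. The differences were -1.70 (PRKDC, adjusted p = 0.00162), -1.27 (PABPC1, 0.026), -1.22 (PARP1, 0.0324) and -1.25 (SUPT16H, 0.0233), each ± 0.34. The 2 controls were 0.86 apart, the widest gap of any of the 49 genes, and measured against lacZ array 3 alone the differences were -1.27, -0.84, -0.79 and -0.82, none of which passed. CCNE2 then differed more with PRKDC (-1.42), PARP1 (-0.92) and SUPT16H hairpins (-0.95), and CDC6 with PARP1 hairpins (-0.94). The PABPC1 and PARP1 calls were also lost without any 1 hairpin (adjusted p of 0.0601 to 0.0896), and the SUPT16H call without hairpin 1 or hairpin 2 (0.0517 and 0.0752). In the first series MCM8 read 7.80 to 9.58 in the knockdowns and 10.01 in lacZ, with differences from -1.28 (DDX5, adjusted p = 0.189) to -0.70 (CLP1) that did not pass.

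**Figure D2:**
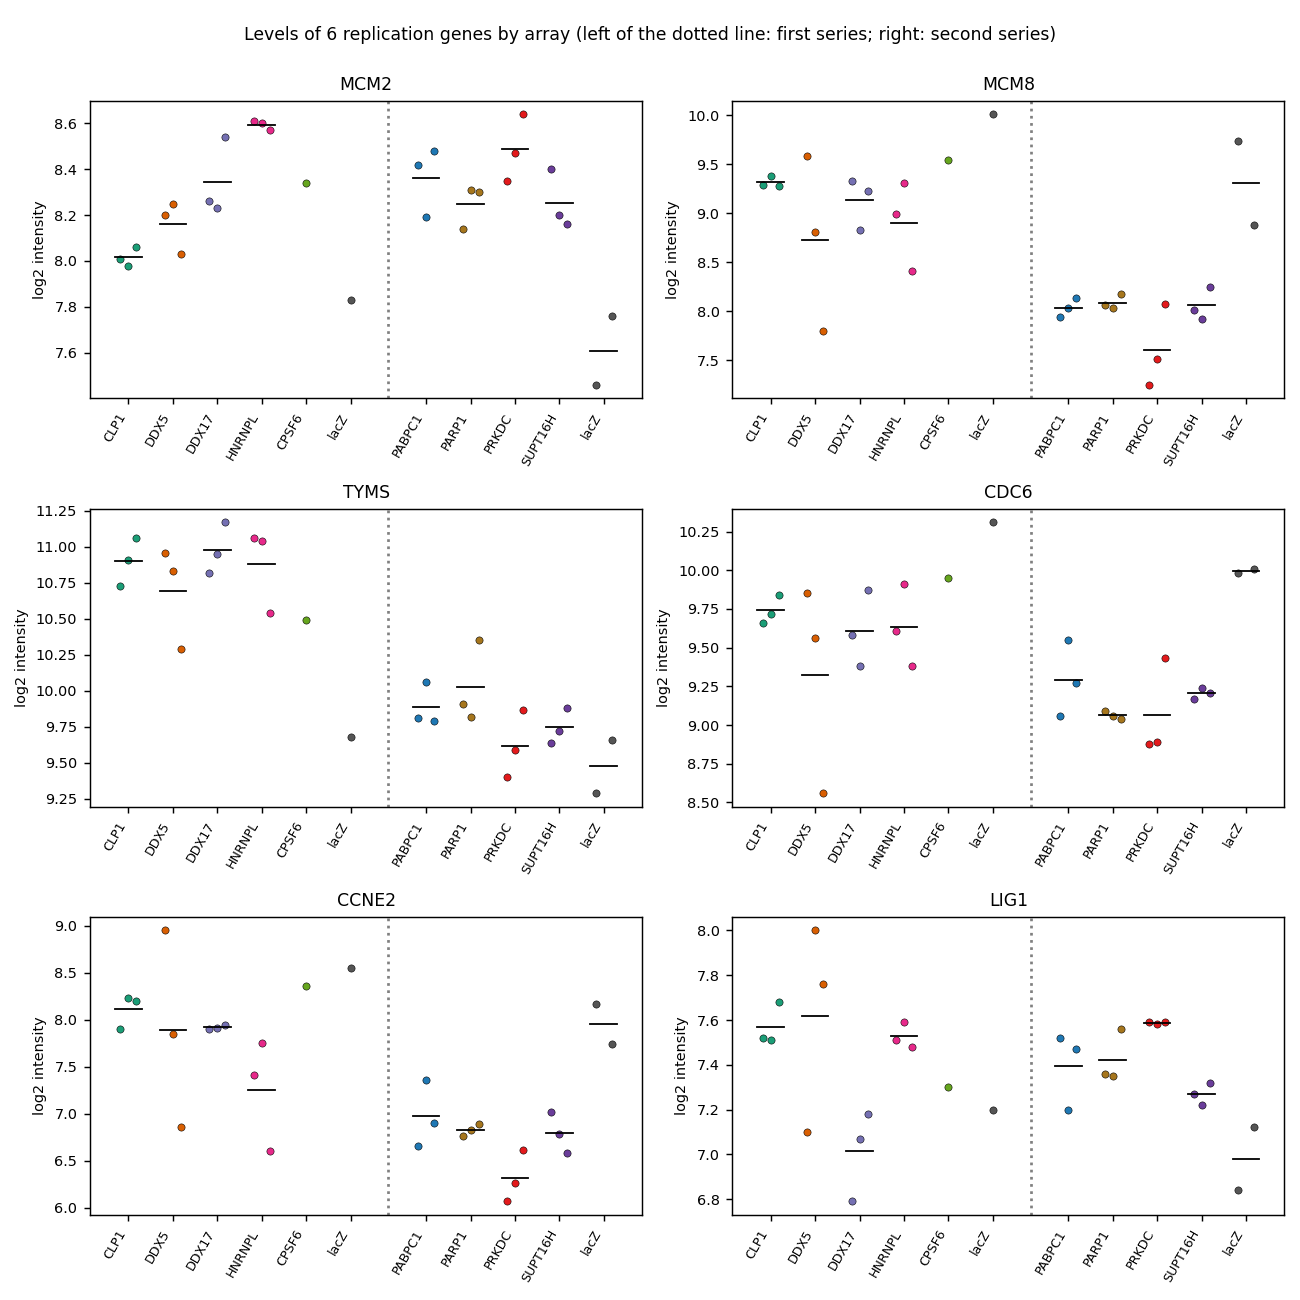
Log2 intensity of MCM2, MCM8, TYMS, CDC6, CCNE2 and LIG1 in each array, with knockdowns left of lacZ within each series and a bar at the mean of groups with more than 1 array. MCM2 lies above lacZ and MCM8 and CDC6 below it in every three-hairpin knockdown array of either series, which share 1 control sample, while LIG1 in the DDX17 knockdown is below its lacZ array.

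Activation of the loaded helicase involves CDC7, CDC45, MCM10 and the 4 GINS subunits. CDC7 read 7.90, 7.61 and 7.70 in the PRKDC knockdown, against 8.97 and 8.65 in lacZ, and fell by 1.07 ± 0.32 (adjusted p = 0.0153). All 3 hairpins were lower than both controls, but the call leaned on lacZ array 2 (-0.91 against lacZ array 3 alone). In the first series the CDC7 level was above lacZ (9.38) in all CLP1 and DDX17 arrays, at 9.54 to 9.99, without passing. GINS1 rose in the DDX17 knockdown, where it read 9.17, 9.16 and 9.54, against 8.49 in lacZ, a difference of 0.80 ± 0.22 (adjusted p = 0.0476). The call did not hold without DDX17 hairpin 2 or hairpin 3 (adjusted p = 0.0677 and 0.138). In the PRKDC knockdown GINS1 read 7.67, 7.91 and 7.69 and lacZ 8.06 and 8.34, a difference of -0.44 that did not pass. MCM10 lay below lacZ in all 12 knockdown arrays of the second series (8.41 to 8.81), with no call.

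At the clamp and its loader, only PCNA passed, and only in the PRKDC knockdown. It read 8.39, 8.71 and 9.31, against 9.73 and 9.69 in lacZ. All 3 hairpins were lower, hairpin 3 least, and PCNA fell by 0.90 ± 0.29 (adjusted p = 0.0213). Without hairpin 1 the adjusted p was 0.087. The RFC subunits differed there by -0.61 (RFC4) to -0.28 (RFC3), and none was called.

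The replicative polymerases split by subunit in the PRKDC knockdown. POLE2, the second subunit of polymerase epsilon, read 6.35, 6.45 and 5.93, against 7.30 and 7.33 in lacZ, a difference of -1.07 ± 0.31 (adjusted p = 0.0131). POLA1, the catalytic subunit of polymerase alpha, read 8.13, 8.17 and 8.37, against 9.09 and 8.84 in lacZ (-0.74 ± 0.23, adjusted p = 0.0172). Both genes were below the controls in every hairpin, but both calls leaned on lacZ array 2 (-1.08 and -0.61 against lacZ array 3 alone). POLD1 and POLD2, the catalytic and a small subunit of polymerase delta, were higher. POLD1 read 7.35, 7.38 and 7.20, against 6.58 and 6.97 in lacZ (0.54 ± 0.17, adjusted p = 0.0229). POLD2 read 9.36, 9.34 and 8.93, against 8.54 and 8.89 in lacZ (0.49 ± 0.17, adjusted p = 0.0327). For POLD2 hairpin 3 was barely above the higher control, and both calls were lost without hairpin 1 or hairpin 2 of PRKDC and without lacZ array 2. POLE, the catalytic subunit of polymerase epsilon, and POLD3 differed by -0.28 and -0.59 in the same comparison and did not pass, nor did the primase subunits PRIM1 (-0.58) and PRIM2 (-0.62).

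**Figure D3:**
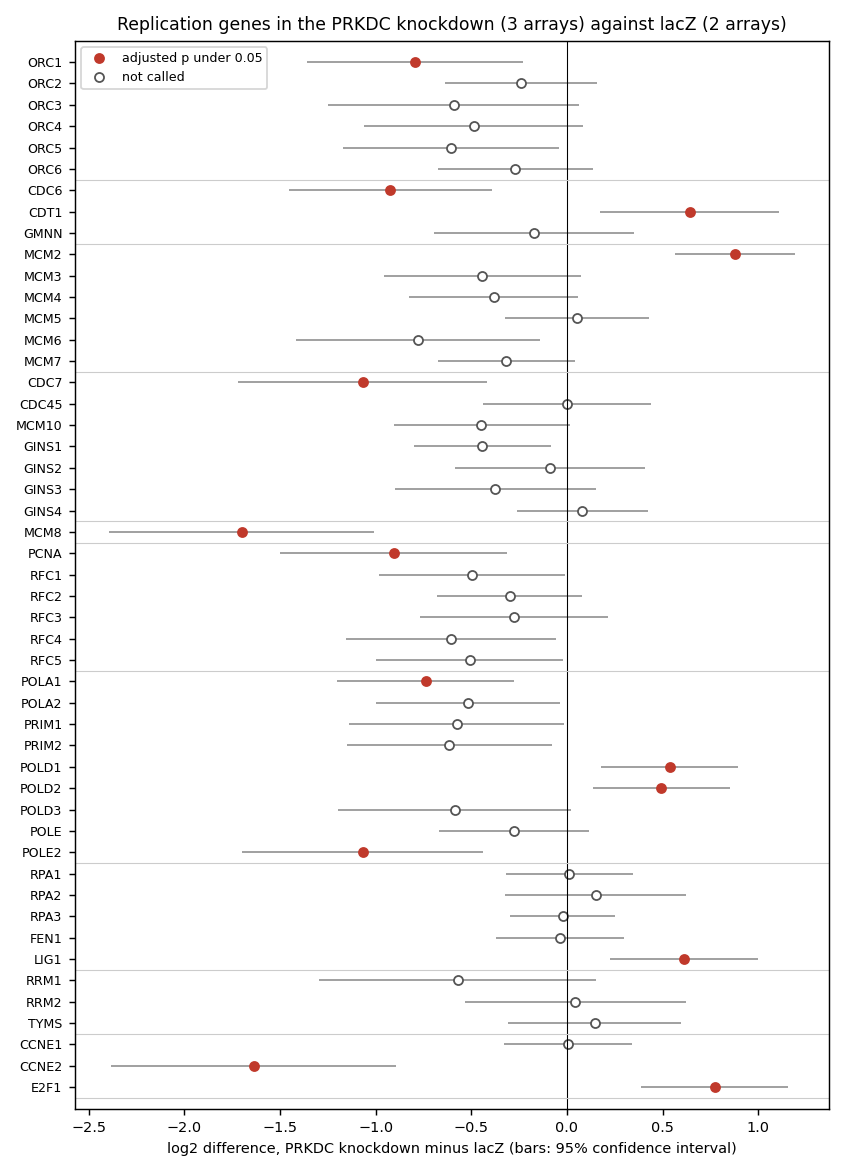
Points are log2 differences of the 49 genes between the PRKDC knockdown (3 arrays) and lacZ (2 arrays), bars are 95% confidence intervals, and filled points passed the adjusted threshold. The 8 filled points left of 0 run from MCM8 at -1.70 to POLA1 at -0.74, and the 6 right of it from POLD2 at 0.49 to MCM2 at 0.88.

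Among RPA, which coats single-stranded DNA, the nuclease FEN1 and the ligase LIG1, only LIG1 was called. FEN1, which trims Okazaki fragments, differed from lacZ by -0.19 to 0.08 over the 8 knockdowns, and in the PRKDC knockdown by -0.04 (95% confidence interval -0.37 to 0.30). RPA1 had a difference of 0.01 there (interval -0.32 to 0.35). LIG1, the ligase that joins the fragments, read 7.59, 7.58 and 7.59 in the PRKDC knockdown, against 6.84 and 7.12 in lacZ (0.61 ± 0.19, adjusted p = 0.0182). The 3 hairpins lay closer to each other than the 2 controls did, and without lacZ array 2 the adjusted p was 0.184.

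Of the nucleotide-supplying enzymes, TYMS, the thymidylate synthase, rose in the first series. It read 10.73, 10.91 and 11.06 with CLP1, 10.82, 10.95 and 11.17 with DDX17 and 11.06, 11.04 and 10.54 with HNRNPL hairpins, against 9.68 in the lacZ array. All 9 arrays were above it. The differences were 1.21 (CLP1, adjusted p = 0.0282), 1.30 (DDX17, 0.00903) and 1.20 (HNRNPL, 0.0242), each ± 0.28, or 2.32-fold, 2.45-fold and 2.29-fold. DDX5 hairpins gave 10.96, 10.83 and 10.29, a difference of 1.01 (adjusted p = 0.095), and the single CPSF6 array read 10.49. All of these rest on 1 lacZ array. When the first series was fitted alone the adjusted p-values were 0.206, 0.0835 and 0.141 for CLP1, DDX17 and HNRNPL, and the CLP1 call was also lost without its hairpin 2 or hairpin 3 and the HNRNPL call without its hairpin 1 or hairpin 2. In the second series TYMS read 9.40 to 10.35 in the knockdowns, against 9.29 and 9.66 in lacZ, and was not called. The ribonucleotide reductase subunits RRM1 and RRM2 passed nowhere. RRM1 differed by -0.57 in the PRKDC knockdown (interval -1.30 to 0.15) and RRM2 by 0.04 (interval -0.53 to 0.62).

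At the entry into S phase, cyclin E2 and E2F1 moved in opposite directions under PRKDC hairpins. CCNE2 read 6.07, 6.27 and 6.62, against 8.17 and 7.74 in lacZ, and fell by 1.64 ± 0.36, or 3.11-fold (adjusted p = 0.00329). E2F1 read 7.90, 7.83 and 7.80, against 6.99 and 7.16 in lacZ (0.77 ± 0.19, adjusted p = 0.00551). Neither gene overlapped its controls, but both calls leaned on lacZ array 2. Against lacZ array 3 alone the differences were -1.42 and 0.69. CCNE2 was also lower in the SUPT16H knockdown, at 7.02, 6.79 and 6.58, with a difference of -1.17 ± 0.36 (adjusted p = 0.0435) that was lost without any one of the 5 arrays compared. The differences for PABPC1 (-0.99) and PARP1 (-1.13) did not pass. CCNE1, the other E-type cyclin, differed from lacZ by -0.39 to 0.33 over the 8 knockdowns with no call, and by 0.01 in the PRKDC one.

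Array 2 of lacZ was counted as 1 sample with the lacZ array of the first series, and any effect of this on second-series calls was not tested. The calls of the second series lean on lacZ array 2. Without it, 1 of the 49 genes was still called in the PRKDC knockdown, MCM2, where 2.7% of all genes were, and 0 in the PABPC1, PARP1 and SUPT16H knockdowns. Without lacZ array 3, 10 were called for PRKDC, where 15.1% of all genes were, and 2 each for PABPC1, PARP1 and SUPT16H, where 2.12%, 2.18% and 2.88% of all genes were. Leaving out PRKDC hairpin 1 left 9, where 23.7% of all genes were called. Between the 2 controls 13 of the 49 genes were over 0.3 apart. The SD of the difference between these controls was 0.28 over the 49 genes and 0.23 over all genes.

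Hairpins of 1 target disagreed most for DDX5. The median difference of the 49 genes from lacZ was 0.33 in DDX5 hairpin 1, 0.05 in hairpin 2 and -0.66 in hairpin 3. In hairpin 3, 44 of the 49 genes were the lowest of the 3 DDX5 arrays (all genes 43%), and 27 lay over 0.5 below lacZ (all genes 25.8%). RRM1 read 10.70, 9.86 and 8.63 in hairpins 1 to 3, MCM6 9.29, 8.60 and 7.53, and CCNE2 8.95, 7.85 and 6.86, against 9.88, 8.76 and 8.55 in the lacZ array. Hairpin 3 was thus below the control and hairpin 1 above it for each. The DDX5 transcript itself was lowered by 0.84, 0.96 and 1.30 in hairpins 1, 2 and 3. HNRNPL hairpin 3 stood lower in the same way, at -0.29 against 0.14 and 0.12 in hairpins 1 and 2, with 40 of the 49 genes lowest of the 3 (all genes 44.7%). These 2 arrays also had the lowest mitosis gene medians of the first series as deposited (-0.97 and -0.91). After quantile normalization these mitosis medians were -0.52 and -0.66, and the lowest was -0.74, in DDX17 hairpin 3. The spread of differences over all genes was widest in the same 2 arrays (SD 0.67 and 0.51, against 0.31 to 0.47 in the other knockdown arrays of that series). The part of the mitosis genes or of the spread in the result was not tested. After centring each array on its median gene the medians of the 49 genes in these 2 arrays were -0.64 and -0.25. After quantile normalization they were -0.15 and -0.06, so most of either shift depended on the scaling. The genes lowest in hairpin 3 then numbered 32 for DDX5 (all genes 40.9%) and 29 for HNRNPL (all genes 40.6%). In the other 6 targets the 3 hairpins lay closer together, for example at -0.47, -0.33 and -0.26 with PRKDC.

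**Figure D4:**
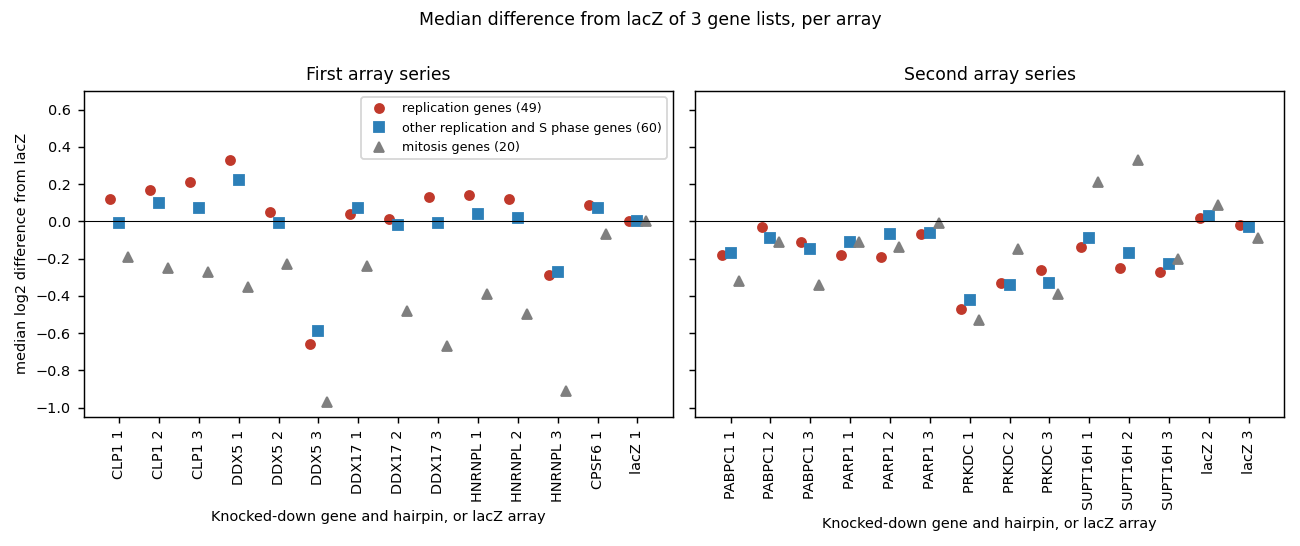
Points are the median log2 difference from the lacZ arrays of the series for the 49 replication genes, 60 other replication and S phase genes and 20 mitosis genes in each array. The replication genes lie between -0.66 (DDX5 hairpin 3) and 0.33 (DDX5 hairpin 1), and all 3 PRKDC arrays lie between -0.47 and -0.26, values that shrink to -0.15, 0.19 and -0.09 to -0.07 after quantile normalization.

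To ask what is particular to a target, each knockdown was also set against the mean of the other 3 three-hairpin knockdowns of its series, which leaves lacZ out. Of the 49 genes 1 passed in 8 such comparisons. LIG1 read 6.79, 7.07 and 7.18 in the DDX17 knockdown, against 7.51 to 7.68 with CLP1, 7.10 to 8.00 with DDX5 and 7.48 to 7.59 with HNRNPL hairpins. Only DDX5 hairpin 1 (7.10) fell within the DDX17 range. LIG1 was lower by 0.56 ± 0.14 (adjusted p = 0.0489), 1 called gene of 49 where 0.874% of all genes were called. The call was lost when any DDX17 hairpin was left out (adjusted p of 0.272, 0.232 and 0.111), after quantile normalization over all arrays (0.143), after median centring (0.0827) and with the first series fitted alone (0.296).

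In the other 7 comparisons 0 genes passed by limma, with 6 (CLP1), 2 (DDX5), 7 (HNRNPL), 3 (PABPC1), 4 (PARP1), 9 (PRKDC) and 2 (SUPT16H) of the 49 at an unadjusted p under 0.05. Over all genes 17.3%, 9.2%, 8.53%, 10.3%, 18.6%, 24.5% and 8.98% had an unadjusted p under 0.05, so the 49 had a smaller share in each but HNRNPL (14.3%). After adjustment 0.722%, 0.038%, 0.0977%, 0.0869%, 0.554%, 0.0869% and 0.0109% of all genes were called. The widest differences were 0.47 for ORC5 and 0.44 for RFC2 in the CLP1 knockdown, -0.44 for GINS1 and -0.41 for MCM6 with DDX5, and -0.71 for CCNE2 and -0.54 for ORC5 with HNRNPL. In the second series they were 0.40 for ORC3 and for GINS1 with PABPC1, 0.48 for POLE2 and -0.38 for POLD1 with PARP1, -0.72 for POLE2 (95% confidence interval -1.18 to -0.26) and -0.57 for ORC3 with PRKDC, and 0.43 for POLD3 and -0.41 for GINS4 with SUPT16H. A change common to all 4 targets of a series cannot show in these comparisons. The DDX5 result turned on which hairpins entered. Without its hairpin 1, 20 of the 49 genes were called (2 higher, 18 lower), where 17.2% of all genes were, and 5 against lacZ (2 higher, 3 lower), where 3.4% were. Without hairpin 3 the MCM6 difference turned to 0.06. Fitting the second series alone gave 12 calls for PRKDC (2 higher, 10 lower), where 17.6% of all genes were called, among them POLE2 (adjusted p = 0.00512) and ORC3 (0.0124), and 2 for PARP1, POLE2 (0.0304) and POLD1 (0.0312), where 7.16% of all genes were called.

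Across arrays most of the 49 genes varied with the rest, more so in the first series, although less after quantile normalization. Over the 12 three-hairpin knockdown arrays of a series, Pearson's r of each gene with the mean of the other 48 had a median of 0.84 in the first series and 0.52 in the second, and 32 and 11 genes exceeded 0.7. PCNA had 0.93 and 0.89, MCM6 0.95 and 0.85, PRIM2 0.92 and 0.85 and CCNE2 0.83 and 0.94. The arrays of a series share their normalization and the hairpins of a target share that target, so these values describe the arrays and carry no test. CDT1 (-0.30 and -0.67), POLD1 (-0.62 and -0.62), POLD2 (-0.40 and -0.28), LIG1 (-0.28 and -0.46) and E2F1 (-0.67 and -0.52) had r below 0 in each series, and MCM2 had 0.06 and -0.12. In DDX5 hairpin 3 POLD1 was at its highest level of the first series (7.76) and POLE2 at its lowest (6.53). Without that array the median r of the first series was 0.71, with 25 genes over 0.7, and 8 genes were below 0: E2F1 (-0.58), CDT1 (-0.44), POLD1 (-0.37), MCM2 (-0.36), POLD2 (-0.20), RPA3 (-0.09), LIG1 (-0.06) and GINS1 (-0.01). After quantile normalization the median r fell to 0.55 and 0.27 in the first and second series, with 17 and 2 genes over 0.7 and 13 and 12 below 0. The 5 genes below 0 in each series as deposited, picked here for their values, are annotated over a median of 10.9 kb (5.5 to 54.9 kb), against 36.8 kb (4.3 to 425.3 kb) for the other 44. The genes that joined them below 0 without DDX5 hairpin 3, MCM2, GINS1 and RPA3, span 24.0, 40.9 and 82.1 kb. A link with length was not tested.

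**Figure D5:**
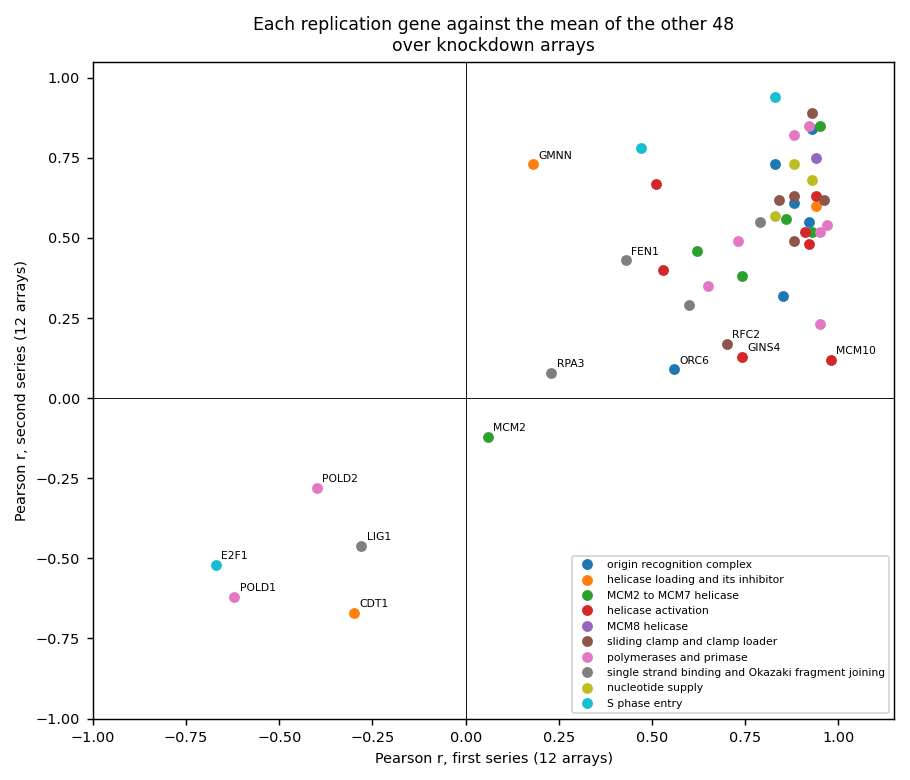
Each point is a replication gene, at its Pearson r with the mean of the other 48 over the 12 three-hairpin knockdown arrays of the first (x axis) and second series (y axis), colored by role. E2F1, POLD1, POLD2, LIG1 and CDT1 lie below 0 on either axis, and most genes lie in the upper right.

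The 60 other measured replication and S phase genes came from the replication checkpoint, chromatin assembly and cell cycle entry. Their median difference from lacZ ran from -0.36 in the PRKDC knockdown to 0.04 in the DDX17 one. After quantile normalization these 2 medians were -0.17 and 0.02. In the PRKDC knockdown 5 of the 60 were called higher and 16 lower, 35% in all, where 35.7% of all genes were called. ESCO2, an acetyltransferase that ties sister chromatids together during S phase, had the largest difference there (-2.32 ± 0.47, adjusted p = 0.00184), ahead of RBL2, an RB family protein (-1.25, 0.00204), and MTBP, a factor of origin firing (-1.13, 0.0199). ESCO2 also fell with PABPC1 (-1.62), PARP1 (-1.66) and SUPT16H hairpins (-1.91). RBL2 was the 1 gene of this list called against the other knockdowns, lower with PRKDC hairpins by 1.14 ± 0.19 (adjusted p = 0.00916). FBXO5, an inhibitor of the ubiquitin ligase that ends mitosis, fell with PABPC1 (-0.77) and PARP1 hairpins (-0.78). Of the 60, 2 were called with PABPC1 and 2 with PARP1 hairpins (3.33% each), where 5.76% and 5.44% of all genes were called. With SUPT16H hairpins 5 of the 60 were called (8.33%, against 9.53% of all genes), 4 of them lower, among them TFDP1, the dimer partner of E2F proteins (-1.06), and ASF1B, a histone chaperone (-0.98), and TK1, thymidine kinase, was higher (0.63). Calls in the first series were RNASEH2B with CLP1 (1.04) and POLE4 (1.18) and DUT (0.86), which keeps uracil out of DNA, with DDX17 hairpins, all higher. CDKN1A, the p53-induced inhibitor of cyclin-dependent kinases, passed in none of the 16 comparisons, with -0.40 in the PRKDC knockdown and 0.49 for SUPT16H against the other knockdowns.

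The 20 mitosis genes had lower medians than the replication genes in the first series. Their median difference from lacZ was -0.24, -0.50, -0.50 and -0.59 with CLP1, DDX5, DDX17 and HNRNPL hairpins, where the replication genes had medians of 0.15, -0.09, 0.07 and -0.01, and 0.10 with SUPT16H hairpins, where the replication genes had -0.22. With PRKDC (-0.36), PABPC1 (-0.22) and PARP1 hairpins (-0.10) it was close to that of the replication genes (-0.37, -0.13 and -0.12). After quantile normalization the mitosis medians were -0.10 with PRKDC, -0.04 with PABPC1, 0.04 with PARP1 and 0.24 with SUPT16H hairpins. In the first series they were then -0.31, -0.42, -0.52 and -0.555 with CLP1, DDX5, DDX17 and HNRNPL hairpins. Of the 20, 1 fell with CLP1 (all genes called 0.956%), 1 with DDX5 (0.842%), 1 with DDX17 (2.77%), 2 with HNRNPL (1.84%), 1 with PABPC1 (5.76%) and 0 with PARP1 hairpins (5.44%). With PRKDC 1 rose and 6 fell (35.7%), and with SUPT16H 2 rose and 1 fell (9.53%). The difference between the lists was not tested.

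The single CPSF6 array, in which CPSF6 read 8.65, against 10.01 in lacZ, has no replicate and was not tested. The median difference of the 49 genes from lacZ was 0.09. ORC3 (9.26) was above, and RPA2 (7.70) and FEN1 (8.38) were below, all 13 other arrays of the first series, 3 of the 49 genes, where 7.9% of all genes were above and 6.08% below.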

How the data were processed

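The data are given as 28 Affymetrix Human Gene ST arrays of HEK293 RNA. The lacZ array of the first series and lacZ array 2 of the second were counted as 1 sample. The authors normalized each array series on its own by robust multi-array averaging (RMA) and deposited linear probeset intensities, which were turned to log2 here. The median intensity of an array over probesets lay between 61.5 and 74.0 (first series) or 54.5 and 58.3 (second). Of 33252 probesets 19460 have 1 gene symbol, 1754 several and 12038 none. The probeset of highest mean stood for a gene, which gave 18417 genes, 18389 of them matched to RefSeq by gene identifier.

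All 28 arrays entered 1 fit with a mean for each target and for lacZ in each series, which amounts to a series term (lmFit, eBayes with an intensity trend, limma 3.58.1, R 4.3.3), with 17 residual degrees of freedom. Each knockdown was compared with the lacZ arrays of its series and with the mean of the other 3 three-hairpin knockdowns, 16 comparisons in all. Benjamini-Hochberg adjustment ran over all genes within a comparison, and a gene was called under 0.05. Intervals are at the 95% level and ± values are standard errors of the fit. All p-values come from limma. No comparison used lacZ arrays 1 and 2 together. The script was tested on simulated data. Summaries and figures were made with Python 3.11.15 (numpy 2.4.6, pandas 2.3.3, matplotlib 3.10.9).

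Genes were named with full statistics where called in a comparison, up to 4 rises and 4 falls, and otherwise as the 2 largest differences. CDC6, ORC1, PCNA, POLA1, POLD1, POLD2 and the genes described by range, hairpin or correlation were picked after their values were seen. The members and lists were chosen with earlier results of these data known. Alternatives were each series fitted alone, no series term, quantile normalization, median centring, a pseudocount of 16, no trend, the dimmest 25% of genes left out, the mean of all probesets, the hairpin number as a block, and each array left out in turn. The quantile-normalized medians, levels and correlations and the ranks against lacZ array 3 alone were added after seeing the data.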

Additional observations from a re-analysis of the deposited data

Results flagged for a closer look

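LIG1 in the DDX17 knockdown stood apart from the other 3 knockdowns of its series by a direct test of the difference, which was -0.556 on the log2 scale (limma adjusted p = 0.0489, 95% confidence interval -0.84 to -0.27). It was below the mean of the other 3 knockdowns in all 3 hairpins. The call was lost when any DDX17 hairpin was left out, after quantile normalization or median centring, and with the first series fitted alone. No group held enough arrays for a check of single arrays that lie far from the rest of their group.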

How the results depend on the processing

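Of 749 alternative values 192 were counts of called replication genes, which have no direction, and 141 of these stayed within 1.5 times. The rest were differences of single genes, not all of them called, and 0 changed the direction of a call. Fitting each series alone gave 0 calls against lacZ for CLP1, DDX17 and HNRNPL (0.299%, 0.831% and 0.527% of all genes). In the second series it gave 11 for PABPC1 (where 18.3% of all genes were called), 9 for PARP1 (11.6%), 30 for PRKDC (6 higher, 24 lower, 48.4%) and 13 for SUPT16H (23.6%). Against the other knockdowns it gave 0 for DDX17, 2 for PARP1 (7.16%) and 12 for PRKDC (17.6%). The spread of these genes within groups was wider in the first series (SD 0.34) than in the second (0.175). Without a series term 11 were called for CLP1 (18.2% of all genes), 7 for DDX5 (17.5%), 13 for DDX17 (20.7%), 8 for HNRNPL (14.0%) and 5 each for PARP1 (5.71%) and SUPT16H (10.0%) against lacZ, and the median over all genes shifted to 0.23 to 0.27 in the first series. Quantile normalization gave 2 for DDX5 (1.03% of all genes), 6 for PABPC1 (5 higher, 1 lower, 7.33%), 7 for PARP1 (2 higher, 5 lower, 6.6%) and 5 for SUPT16H (10.1%) against lacZ, and 1 each for CLP1 (0.375%) and PRKDC (2.11%) against the other knockdowns. Dropping the trend gave 1 for DDX5 against lacZ (0.842% of all genes), and median centring 0 for DDX17 against the other knockdowns. The cause was not tested. Against lacZ, leaving out 1 hairpin array gave 0 to 1 for CLP1 (0.478% to 0.809% of all genes) and 0 to 5 for DDX5 (0.972% to 3.4%). It gave 1 to 2 for DDX17 (1.5% to 3.01%) and 0 to 1 for HNRNPL (1.06% to 1.36%). In the second series it gave 1 for PABPC1 (2.39% to 3.23%) and 1 for PARP1 (2.91% to 3.3%). For PRKDC it gave 9 to 15 (23.7% to 31.2%) and for SUPT16H 1 to 2 (3.46% to 6.46%). Leaving out lacZ array 2 lowered these second-series counts further, as given above. Against the other knockdowns, leaving out 1 hairpin array gave 0 to 20 for DDX5, the 20 where 17.2% of all genes were called, and 0 for DDX17. The arrays that decide are named beside some of the results only. Single genes under these 1-array omissions lost the call in 62 of 176 values, gained a call in 4 and kept their call status in 109. The 176 include genes named without a call, which had none to lose, so the share of calls lost was higher. Leaving out the dimmest genes or averaging probesets changed no call of a named gene.

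Hairpin numbers showed no common pairing of the arrays. Over 36 pairs of same-numbered arrays the correlation of deviations from the group means had a median of 0.02, the same as between different numbers. Single pairs ran from -0.58 to 0.83, with 15 over 0.1, so the median does not exclude that some pairs deviated together. With the hairpin number as a replicate block DDX17 had 1 call against lacZ in place of 2, since GINS1 moved to an adjusted p of 0.0535, and no other count moved by over 1.5 times.

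With 1 or 2 lacZ arrays in a series, the number of controls limits what these comparisons can detect.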
